A study of Mus musculus with 12 samples.

Results

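The 34 genes described here make fatty acids, triglycerides and cholesterol or govern that work, and 1 of them, Stard4, carries sterol between membranes. They were listed by name for their place in these pathways and are 34 of the 18193 genes that had a probe set of their own. Where a gene had several probe sets, the one with the highest average across the arrays stands for it. All 34 exceeded 5 on the log2 scale on 3 arrays or more, the filter that left 15237 genes for testing.

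Expression was read on 12 Affymetrix mouse arrays, 1 per sample, from C57BL6 mice. The 4 groups of 3 arrays were wild-type (WT) mice on the normal diet, Sgpp2-/- mice (KO) on the normal diet, WT mice on the high-fat diet and Sgpp2-/- mice on the high-fat diet. Sgpp2 encodes a phosphatase of the endoplasmic reticulum that dephosphorylates sphingosine-1-phosphate, and the study's title concerns its part in pancreatic islet β-cells. The sources used here do not give age, sex, the make-up and length of the diets, the deleted stretch of Sgpp2 or whether each array came from its own mouse. The p-values therefore measure only how these samples spread, and that spread may be technical.

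Sgpp2 itself was read by 1 probe set, 1457867_at, at 11.55, 11.51 and 11.63 on the WT normal arrays, 11.03, 11.17 and 10.99 on the KO normal arrays, 11.48, 11.46 and 11.57 on the WT high-fat arrays and 11.12, 11.11 and 11.02 on the KO high-fat arrays. All KO arrays were below all WT arrays, but the KO mean was still 70.6% of WT on the normal and 74.9% on the high-fat diet, a log2 difference of −0.46 (SE 0.05, adjusted p = 0.00327) over both. Whether this probe set lies inside the deleted stretch is not known here, so it separates the genotypes as labelled without showing that the transcript is gone.

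Lipid synthesis starts from acetyl-CoA, which is made from citrate or acetate. In one branch it is carboxylated to malonyl-CoA, built into palmitate, then elongated, desaturated and attached to glycerol to give triglyceride. In the other it passes through mevalonate, isoprenoids, squalene and lanosterol to cholesterol. The transcription factors SREBP-1 and SREBP-2 drive both branches, and Insig proteins hold them in the endoplasmic reticulum when sterols are plentiful. In β-cells these pathways are known for their ties to glucose metabolism, insulin secretion and lipid stress.

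The promoter windows of 5 members are shown because the results below turn on 4 of them (Insig2, Acss2, Lpin1 and Fads2) and because Hmgcs1 carries the sterol regulatory element core, the site bound by SREBP. Each is the stretch of 250 bases before a gene's start, written 5′ to 3′ on the gene's own strand, from RefSeq on build GRCm38.p6. Capitals mark matches, on either strand, to 3 motifs: the sterol regulatory element core TCACNCCAC, the E-box CACGTG that carbohydrate- and clock-related factors bind, and the CCAAT box bound by NF-Y. In these windows no matches of different motifs overlap. The windows lie at chr1:121332590-121332839 (minus strand), chr2:155517793-155518042 (plus), chr12:16610967-16611216 (minus), chr19:10101504-10101753 (minus) and chr13:119690101-119690350 (plus).
Insig2: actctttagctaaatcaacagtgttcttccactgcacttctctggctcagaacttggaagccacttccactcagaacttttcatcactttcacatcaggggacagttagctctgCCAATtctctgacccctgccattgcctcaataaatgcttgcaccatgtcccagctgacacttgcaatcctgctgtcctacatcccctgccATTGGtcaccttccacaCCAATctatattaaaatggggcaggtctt
Acss2: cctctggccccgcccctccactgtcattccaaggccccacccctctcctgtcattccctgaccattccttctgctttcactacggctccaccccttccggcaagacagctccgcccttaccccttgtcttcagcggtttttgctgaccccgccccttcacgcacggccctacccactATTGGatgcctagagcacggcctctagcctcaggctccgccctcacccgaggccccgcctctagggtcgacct
Lpin1: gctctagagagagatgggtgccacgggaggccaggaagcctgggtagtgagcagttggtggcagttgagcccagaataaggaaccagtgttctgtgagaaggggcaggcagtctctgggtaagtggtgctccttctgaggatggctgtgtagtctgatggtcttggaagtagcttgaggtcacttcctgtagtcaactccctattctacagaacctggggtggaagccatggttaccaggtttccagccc
Fads2: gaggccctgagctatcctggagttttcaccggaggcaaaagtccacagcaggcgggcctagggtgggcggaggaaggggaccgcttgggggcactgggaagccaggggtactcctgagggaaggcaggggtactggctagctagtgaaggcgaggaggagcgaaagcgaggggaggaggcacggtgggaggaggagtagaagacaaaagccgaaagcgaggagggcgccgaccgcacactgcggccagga
Hmgcs1: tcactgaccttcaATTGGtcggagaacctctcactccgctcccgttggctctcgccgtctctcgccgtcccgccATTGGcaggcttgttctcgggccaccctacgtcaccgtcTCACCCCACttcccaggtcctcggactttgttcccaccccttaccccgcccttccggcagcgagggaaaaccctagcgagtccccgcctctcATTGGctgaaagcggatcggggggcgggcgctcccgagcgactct

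In Hmgcs1, the first committed enzyme of the sterol branch, the sterol regulatory element core begins 137 bases before the start, and CCAAT boxes begin 237, 176 and 45 bases before it. Insig2 has 3 RefSeq windows, and the one shown holds 3 CCAAT boxes, at 136, 46 and 29 bases, while the other 2 hold no match to any of the motifs; the Acss2 window has 1 CCAAT box, at 73 bases. Lpin1 and Fads2 have no match to these letters in their windows, which says nothing about the factors. RefSeq windows were matched for 26 of the 34 members, 35 windows in all. The sterol regulatory element core was in 2 of the 35 (5.71%, in Mlxipl and Hmgcs1) against 1.05% of all 32851 windows, the E-box in 4 (11.4%) against 6.02%, and the CCAAT box in 21 (60%) against 33.8%.

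In the comparison of KO with WT, 24 of 34 members had lower means in KO over both diets (70.6%, against 59.5% of all genes). Over both diets 3 of 34 passed the test (8.82%, against 6.32% of all genes). Insig2, which retains SREBP in the endoplasmic reticulum, rose 1.35-fold, Acss2, which activates acetate, rose 1.16-fold, and Stard4 fell to 79.9% of WT. Each rests on 1 of 3 probe sets: when the probe sets of a gene were averaged none of these 3 was called, with Insig2 at 0.04 (adjusted p = 0.598) and Acss2 turned to −0.04 (adjusted p = 0.755). The high-fat diet came with lower means of the desaturase genes Scd1 (63.8% of the normal diet) and Fads2 (70.7%). The mean of Lpin1, a phosphatidate phosphatase, was higher (124%). None of these diet differences passed the test. For these 3 genes no high-fat array overlapped with any normal-diet array (8.82% of the members, against 0.958% of all genes). The heat map by role gives every member on every array.

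**Figure D1:**
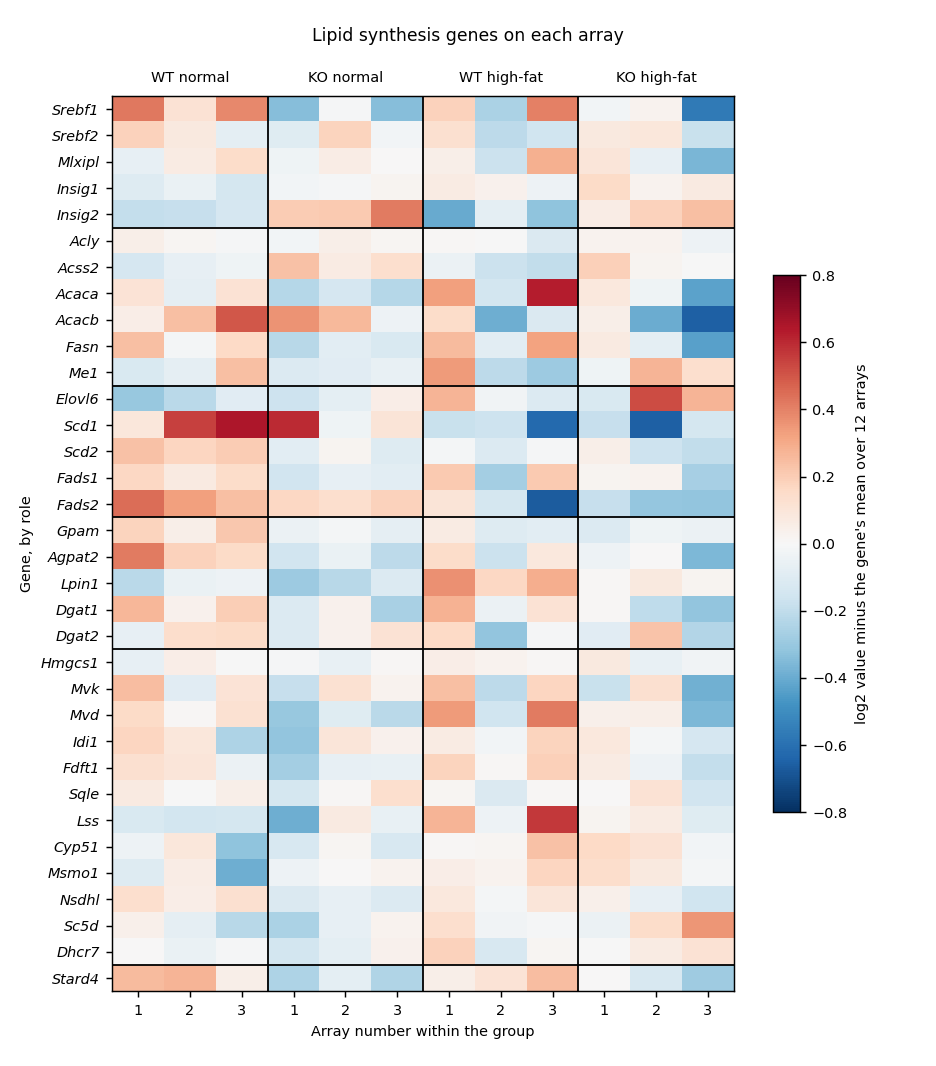
Each cell is 1 of the 34 genes (rows, grouped by role from regulators at the top to Stard4 at the bottom) on 1 of 12 arrays (columns), coloured by its log2 value minus the gene's mean over the 12 arrays; red is higher and blue lower. Insig2 and Acss2 are redder and Stard4 bluer on the KO arrays. Scd1 and Fads2 are bluer and Lpin1 redder on the high-fat arrays. KO normal array 1, WT high-fat array 2 and KO high-fat array 3 are blue for many genes at once.

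A call below means an adjusted p under 0.05 in limma's moderated test on the log2 values, fitted on all 12 arrays and adjusted by Benjamini-Hochberg over the 15237 genes. On the normal diet 0 of 34 members were called between the genotypes, where 0.84% of all genes were. The smallest adjusted p was 0.0616, for Insig2. At an unadjusted p under 0.05 there were 9 members, 2 higher and 7 lower in KO (26.5%, against 22.1% of all genes). The arrays of the genotypes did not overlap for 15 members, 3 higher and 12 lower in KO (44.1%, against 34.3% of all genes). On the high-fat diet 0 of 34 were called, against 0.0263% of all genes, and 6 had an unadjusted p under 0.05, 2 higher and 4 lower (17.6%, against 13.4%). There the genotypes did not overlap for 4 members, 2 higher and 2 lower in KO (11.8%, against 14.8% of all genes).

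Averaged over both diets, 3 of 34 members were called (8.82%), close to the 6.32% of all genes. At an unadjusted p under 0.05 there were 13 members (38.2%, against 28.6% of all genes), 2 higher and 11 lower in KO. The 11 lower members are 32.4% of the list, and 17.8% of all genes were lower at that threshold. With each array centred on its own median 5 members were lower at that threshold (14.7%), and after cyclic loess 9 were (26.5%). The share of all genes lower at that threshold under those settings is not given here. Every one of the 6 KO arrays lay apart from every one of the 6 WT arrays for the 3 called members (8.82%, against 4.99% of all genes). No other member separated the genotypes on all 12 arrays.

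The whole list is given beside all genes, which had lower means in KO more often than higher ones. In KO 27 of 34 members had lower means on the normal diet and 23 on the high-fat diet, while 59.8% and 56.7% of all genes did. The median log2 difference of the members was −0.09 and −0.05, and that of all genes −0.05 and −0.03. With each array centred on its own median, 19 of 34 and 17 of 34 were lower, and the medians were −0.02 and −0.01, while 48.1% and 47% of all genes were lower, with medians of 0.01 and 0.01. Centring moves every gene alike, so that the count of lower members fell with that of all genes. After cyclic loess 22 and 21 of 34 members were lower, against 53.6% and 51.7% of all genes.

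For the diet, 0 of 34 members were called in WT (0.0788% of all genes), 0 in KO (0% of all genes) and 0 over both genotypes (0.197%). Members with an unadjusted p under 0.05 numbered 6 in WT, 4 in KO and 8 over both genotypes (17.6%, 11.8% and 23.5%), against 11.1%, 7.7% and 13.6% of all genes. The diet groups lay apart on all 12 arrays for Lpin1, Fads2 and Scd1 (8.82% of the members, against 0.958% of all genes). The test of the difference between the diet's effects in the 2 genotypes called 0 of 34 members and 0% of all genes; 0 members had an unadjusted p under 0.05, and the smallest adjusted p was 0.99, for Scd2.

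**Figure D2:**
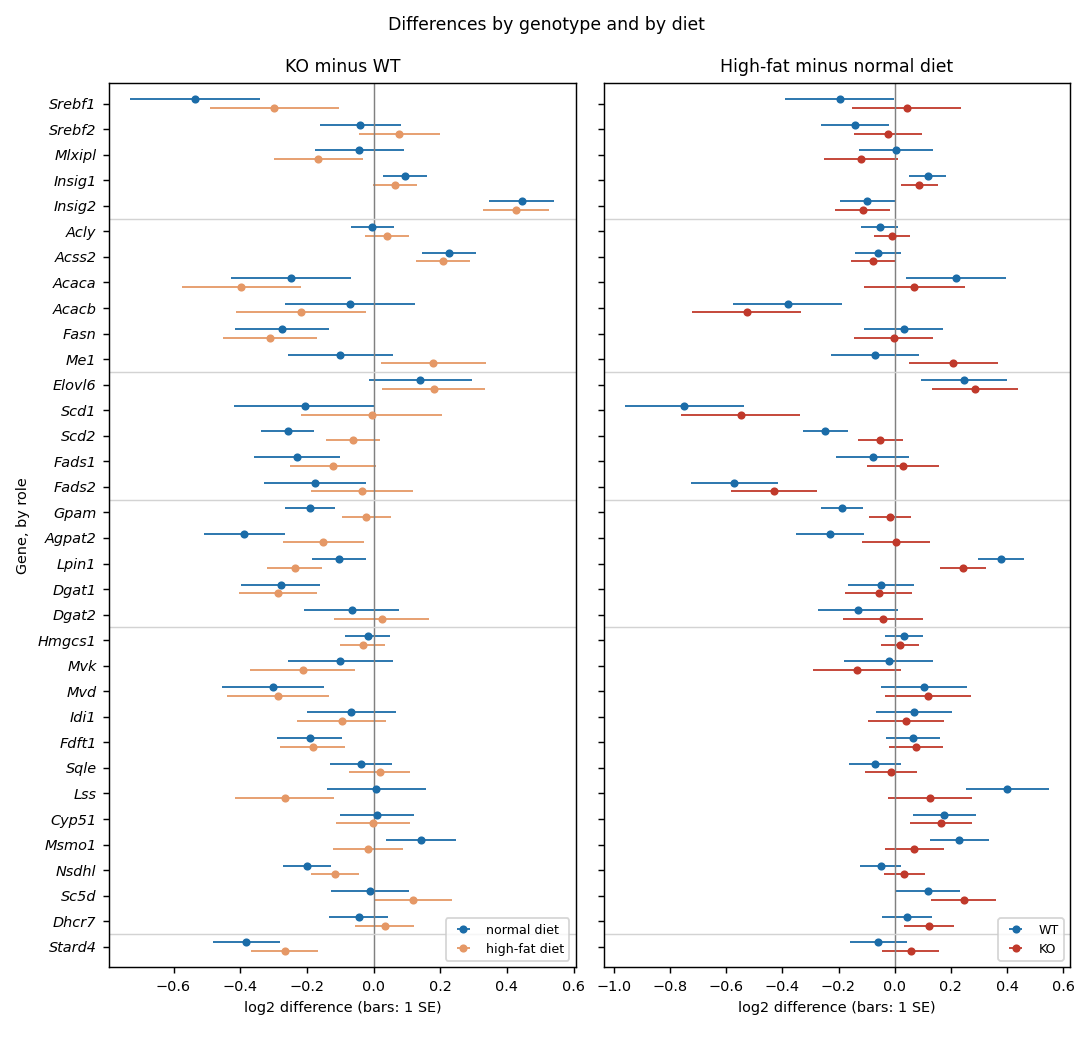
Points are log2 differences of group means for the 34 genes in the same order by role, with bars of 1 SE from the fit; the left panel shows KO minus WT on the normal (blue) and high-fat (orange) diet, the right panel the high-fat minus the normal diet in WT (blue) and KO (red). Insig2 and Acss2 lie to the right of 0 and Srebf1, Acaca, Fasn, Dgat1, Mvd and Stard4 to the left on both diets; on the right, Scd1, Fads2 and Acacb lie left of 0 and Lpin1 and Elovl6 right of 0 in both genotypes.

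The regulators came first. Insig2 gave log2 values of 10.63, 10.63 and 10.69 on the WT normal arrays, 11.02, 11.03 and 11.24 on the KO normal arrays, 10.42, 10.75 and 10.50 on the WT high-fat arrays and 10.88, 11.00 and 11.06 on the KO high-fat arrays. The lowest KO array was above the highest WT array on each diet and over both. The log2 difference between KO and WT was 0.44 (SE 0.07, adjusted p = 0.00965) over both diets. Within the diets it was 0.44 (SE 0.10, adjusted p = 0.0616) for the normal and 0.43 (SE 0.10, adjusted p = 0.144) for the high-fat diet. Insig2 was called over both diets with any 1 array left out, at adjusted p between 0.00291 and 0.0326, and was also called on the normal and on the high-fat diet, at adjusted p = 0.0374 and 0.0348, without WT high-fat array 2.

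Insig2 lies on chromosome 1, as Sgpp2 does, with 222 protein-coding genes between them, and no other member is on that chromosome. Of the 885 tested genes on chromosome 1, 90 (10.2%) were called over both diets. An effect of the loss of Sgpp2 on Insig2 and a stretch of chromosome carried along with the knockout allele cannot be told apart here. The diet difference of Insig2 was −0.10 (SE 0.10, adjusted p = 0.794) in WT and −0.11 (SE 0.10, adjusted p = 0.881) in KO.

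Insig2 is read by 2 other probe sets, and they went the other way. The probe set 1417981_at was lower in KO by a log2 difference of −0.13 (SE 0.06) and 1417982_at by −0.18 (SE 0.06), both with an unadjusted p under 0.05 and neither called when every probe set was tested on its own (adjusted p = 0.145 and 0.0722). When the probe sets of a gene were averaged, the Insig2 difference was 0.04 (adjusted p = 0.598). The called rise thus belongs to 1 probe set of 3, whose suffix _a_at marks probes shared by several transcripts of the gene. Which transcripts each probe set reads was not analysed here.

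**Figure D3:**
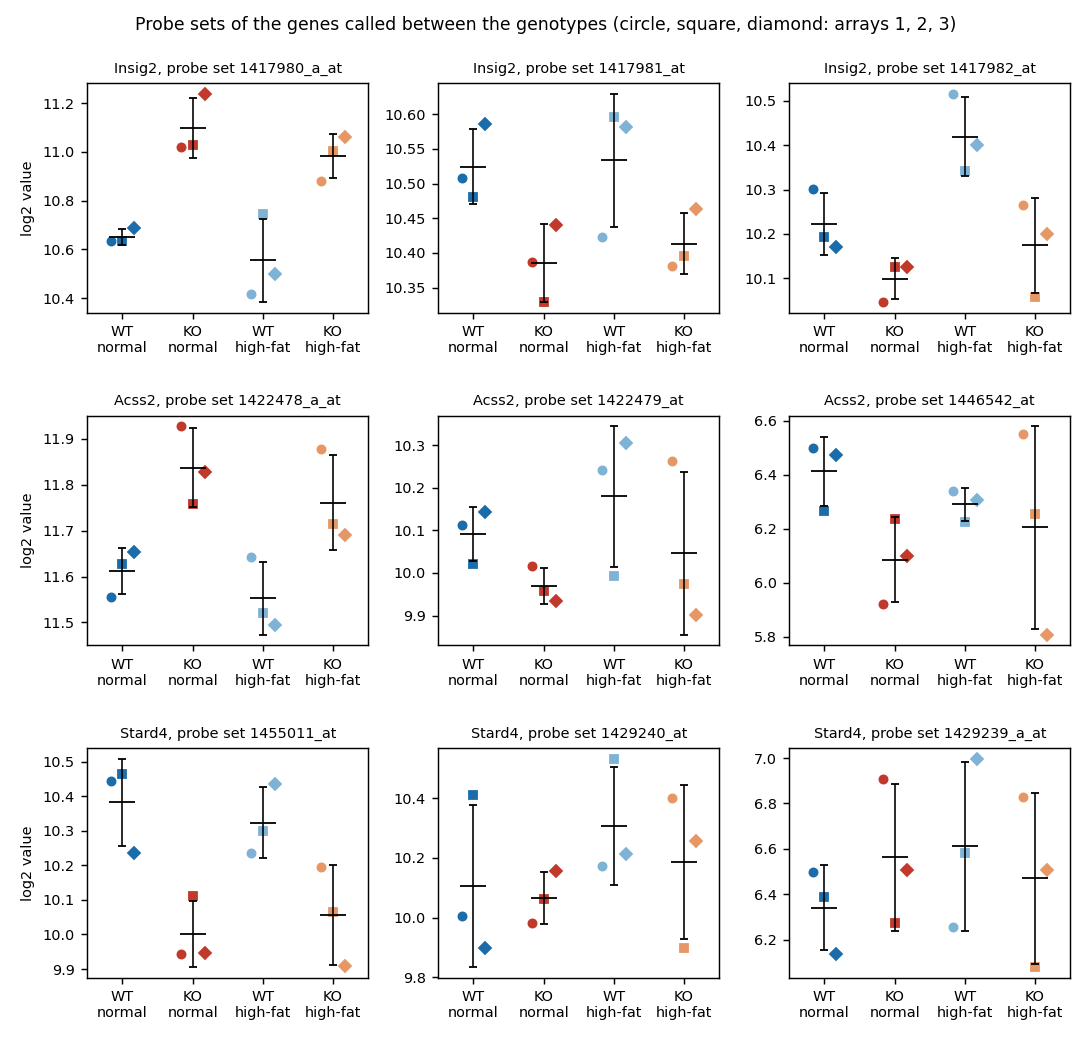
Each panel shows 1 probe set of Insig2 (top), Acss2 (middle) or Stard4 (bottom), with the log2 value of each array by group, a bar at the group mean and whiskers of 1 SD (n = 3); the axes differ between panels. The left column holds the probe sets used for the genes, where all KO arrays are apart from all WT arrays; in the other 2 columns the Insig2 and Acss2 means are lower in KO on both diets, and the Stard4 groups overlap.

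Srebf1 encodes SREBP-1, the main driver of fatty acid synthesis genes. Its values were 11.14, 10.84 and 11.10 on the WT normal arrays, 10.38, 10.71 and 10.38 on the KO normal arrays, 10.90, 10.47 and 11.13 on the WT high-fat arrays and 10.70, 10.75 and 10.15 on the KO high-fat arrays. On the normal diet every KO array was below every WT array, while on the high-fat diet WT array 2 lay below 2 of the KO arrays. The KO mean was 69% of WT on the normal diet, a log2 difference of −0.54 (SE 0.19, adjusted p = 0.157). Over both diets the difference was −0.42 (SE 0.14, adjusted p = 0.084), which did not pass.

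Srebf2 encodes SREBP-2, the main driver of sterol synthesis genes. It gave 10.37, 10.26 and 10.10 on the WT normal arrays, 10.09, 10.36 and 10.16 on the KO normal arrays, 10.31, 9.97 and 10.02 on the WT high-fat arrays and 10.26, 10.28 and 10.00 on the KO high-fat arrays, and the groups overlapped. Its difference between KO and WT over both diets was 0.02 (SE 0.09), with a 95% confidence interval of −0.17 to 0.21. Mlxipl encodes ChREBP, which turns on lipogenic genes in response to glucose. It read 12.26, 12.39 and 12.47 on the WT normal arrays, 12.29, 12.38 and 12.33 on the KO normal arrays, 12.38, 12.16 and 12.61 on the WT high-fat arrays and 12.42, 12.26 and 11.96 on the KO high-fat arrays. KO high-fat array 3 was the lowest of the 12, and the difference over both diets was −0.10 (SE 0.09) (interval −0.31 to 0.10).

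Insig1, the partner of Insig2 that is itself a target of SREBP, was at 13.41, 13.46 and 13.37 on the WT normal arrays, 13.49, 13.51 and 13.53 on the KO normal arrays, 13.58, 13.55 and 13.47 on the WT high-fat arrays and 13.67, 13.54 and 13.59 on the KO high-fat arrays. All KO arrays were above all WT arrays on the normal diet, by 0.09 (SE 0.07, adjusted p = 0.414), and all high-fat arrays above all normal-diet arrays within each genotype, by 0.12 in WT and 0.09 in KO. These steps are small, and over both genotypes the diet difference was 0.10 (SE 0.05, adjusted p = 0.375). Of the 5 regulators, 1 was called over both diets (Insig2, up) and 0 for the diet.

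Among the 6 genes that make acetyl-CoA, malonyl-CoA, NADPH or palmitate, Acss2 was called in KO and the 2 enzymes at the heart of the pathway were lower without passing. Acss2, the cytosolic and nuclear acetyl-CoA synthetase, gave 11.56, 11.63 and 11.65 on the WT normal arrays, 11.93, 11.76 and 11.83 on the KO normal arrays, 11.64, 11.52 and 11.49 on the WT high-fat arrays and 11.88, 11.71 and 11.69 on the KO high-fat arrays. Every KO array was above every WT array. The log2 difference was 0.22 (SE 0.06, adjusted p = 0.0462) over both diets, 0.23 on the normal and 0.21 on the high-fat diet. The call was lost without any 1 array other than WT high-fat array 2, at adjusted p between 0.0607 and 0.116, and with no filter on low values (0.0549). It was also lost with array numbers as a replicate block (0.0679) and with same-numbered KO arrays as a random block (0.0755). The other probe sets of Acss2 were lower in KO, by −0.13 (1422479_at, SE 0.08) and −0.21 (1446542_at, SE 0.11), and the mean of all 3 turned the sign, at −0.04 (adjusted p = 0.755).

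Fasn, fatty acid synthase, read 10.90, 10.64 and 10.81 on the WT normal arrays, 10.43, 10.57 and 10.53 on the KO normal arrays, 10.90, 10.57 and 10.98 on the WT high-fat arrays and 10.73, 10.58 and 10.22 on the KO high-fat arrays. On the normal diet the KO arrays lay below the WT arrays, and on the high-fat diet they overlapped through WT array 2. The difference was −0.27 on the normal diet, −0.31 on the high-fat diet and −0.29 (SE 0.10, adjusted p = 0.0917) over both. Acaca, acetyl-CoA carboxylase 1, which supplies malonyl-CoA to Fasn, was at 10.40, 10.22 and 10.41 on the WT normal arrays, 10.07, 10.16 and 10.06 on the KO normal arrays, 10.62, 10.14 and 10.92 on the WT high-fat arrays and 10.38, 10.26 and 9.87 on the KO high-fat arrays. Its highest values were on WT high-fat arrays 1 and 3. The difference over both diets was −0.32 (SE 0.13, adjusted p = 0.127).

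Acacb, the mitochondrial acetyl-CoA carboxylase whose product restrains fatty acid oxidation, had lower means on the high-fat diet, with values of 8.43, 8.62 and 8.87 on the WT normal arrays, 8.74, 8.64 and 8.34 on the KO normal arrays, 8.53, 7.99 and 8.26 on the WT high-fat arrays and 8.42, 7.98 and 7.72 on the KO high-fat arrays. The arrays overlapped between the diets. The diet difference was −0.38 (SE 0.20) in WT, −0.53 (SE 0.20) in KO and −0.45 (SE 0.14, adjusted p = 0.197) over both genotypes. Acly, which splits citrate to acetyl-CoA, ranged from 13.98 to 14.15 over the 12 arrays, with a difference between KO and WT of 0.02 (SE 0.05). Another Acly probe set, 1425326_at, was called lower in KO when probe sets were tested on their own (−0.51, SE 0.09, adjusted p = 0.00812). Me1, the malic enzyme that supplies NADPH, ranged from 9.15 to 9.79 with a difference of 0.04 (SE 0.11).

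**Figure D4:**
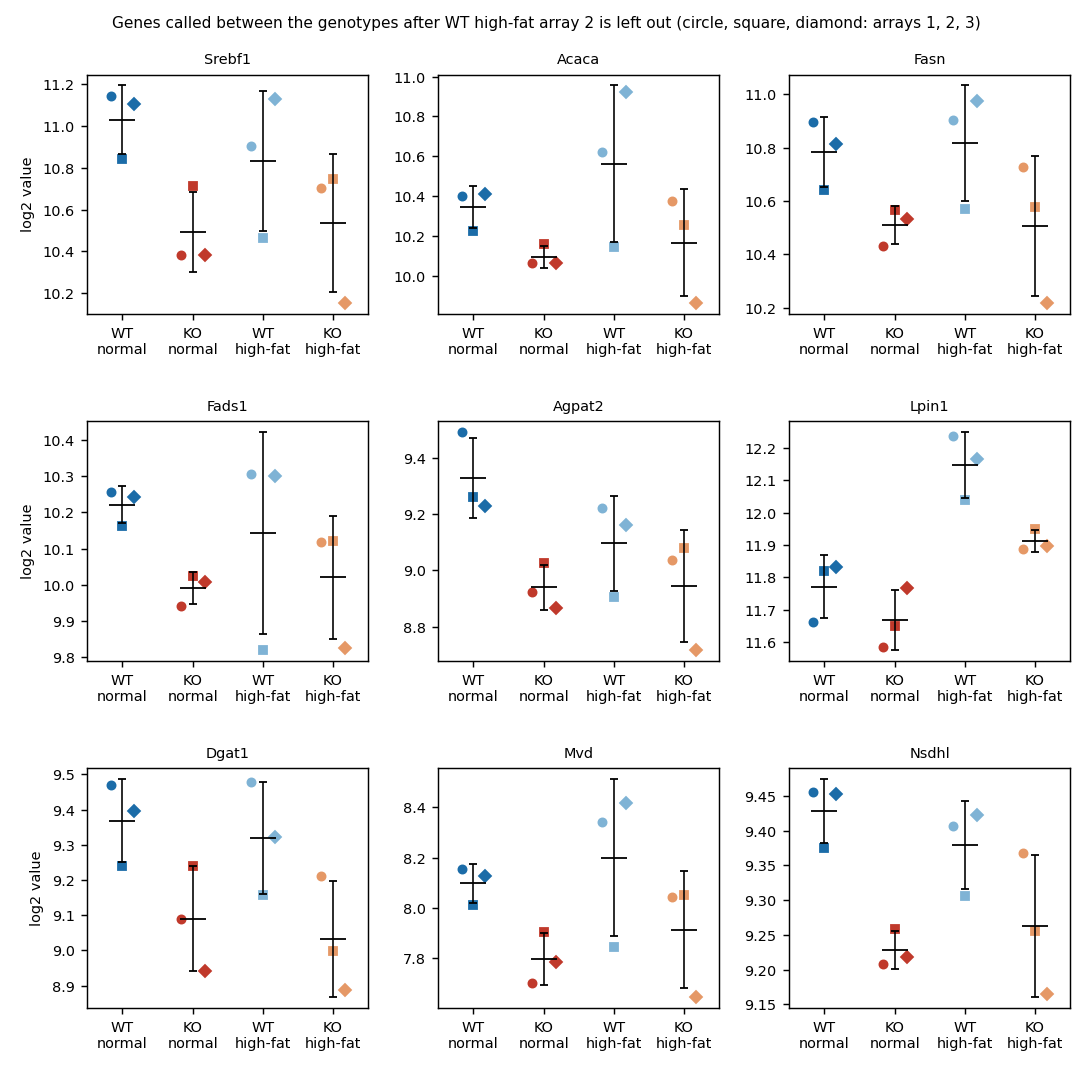
Each panel shows the log2 value of each array of 1 gene by group (circle, square and diamond for arrays 1, 2 and 3), a bar at the group mean and whiskers of 1 SD (n = 3); the axes differ between panels. These 9 genes were called lower in KO over both diets once WT high-fat array 2 (square in the third group) was left out, and that array is the lowest of its group in every panel.

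With all 12 arrays none of Srebf1, Acaca, Fasn, Fads1, Agpat2, Lpin1, Dgat1, Mvd and Nsdhl was called between the genotypes. Without WT high-fat array 2 all 9 were, at adjusted p between 0.0205 and 0.048, together with Insig2, Acss2 and Stard4, so that 12 of 34 members were called (35.3%) against 16.4% of all genes. Srebf1 then differed by −0.51, Acaca by −0.43, Mvd by −0.38 and Fasn by −0.35. WT high-fat array 2 was the lowest of its 3 arrays for 23 of 34 members and for 42.4% of all genes. It was the lowest of its group for each of the 9 genes, so leaving it out raises their WT means. KO high-fat array 3 was the lowest of its group for 24 members and 45.5% of all genes. With KO high-fat array 3 alone left out, 1 member was called (2.94%, against 2.57% of all genes). Leaving out any other single array than these left 1 or 2 members called. With both arrays left out, a setting chosen after their values were seen, 8 members were called (Srebf1, Insig2, Acaca, Fasn, Fads1, Agpat2, Mvd and Stard4), against 10.8% of all genes. KO normal array 1 was likewise the lowest of its group for 22 members and 35.2% of all genes. Without it, 22 of 34 members had lower means in KO on the normal diet, against 27 with all arrays. All genes were lower in 60.6% of cases without it and 59.8% with all arrays. Lower members with an unadjusted p under 0.05 on that diet then numbered 3, against 7. What sets these arrays apart was not tested.

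The elongase and desaturases turn palmitate into longer and unsaturated fatty acids, and 0 of 5 were called in any comparison. Scd1, stearoyl-CoA desaturase 1, which introduces the first double bond, gave 10.97, 11.42 and 11.52 on the WT normal arrays, 11.47, 10.84 and 10.98 on the KO normal arrays, 10.70, 10.71 and 10.25 on the WT high-fat arrays and 10.69, 10.23 and 10.73 on the KO high-fat arrays. All 6 high-fat arrays lay below all 6 normal-diet arrays. The high-fat mean was 59.5% of the normal diet in WT and 68.4% in KO, log2 differences of −0.75 (SE 0.21) and −0.55 (SE 0.21). Over both genotypes the difference was −0.65 (SE 0.15, adjusted p = 0.125), with a 95% interval of −0.98 to −0.32. These values are from 1 probe set, and those of the other Scd1 probe set, 1415965_at, are not given here. Of 25 members with several probe sets above the filter, 11 had probe sets of opposite sign between the diets over both genotypes.

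Fads2, the Δ6 desaturase that starts the synthesis of long polyunsaturated fatty acids, followed the diet in the same way. It read 10.01, 9.90 and 9.81 on the WT normal arrays, 9.73, 9.70 and 9.75 on the KO normal arrays, 9.67, 9.43 and 8.90 on the WT high-fat arrays and 9.38, 9.26 and 9.25 on the KO high-fat arrays. All 6 high-fat arrays were below all 6 normal-diet arrays, and WT high-fat array 3 was far below the other 2 of its group. The difference was −0.57 (SE 0.15) in WT, −0.43 (SE 0.15) in KO and −0.50 (SE 0.11, adjusted p = 0.111) over both. Without WT high-fat array 3 the difference in WT was −0.36 and that over both genotypes −0.39. The other 2 probe sets of Fads2 were also lower on the high-fat diet over both genotypes, by −0.24 (SE 0.13) and −0.28 (SE 0.10).

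Fads1, the Δ5 desaturase, ranged from 9.82 to 10.30 and differed by −0.02 between the diets and by −0.18 (SE 0.09, adjusted p = 0.227) between the genotypes. Scd2, the desaturase isoform of brain and many other tissues, was at 11.54, 11.48 and 11.51 on the WT normal arrays, 11.22, 11.33 and 11.20 on the KO normal arrays, 11.29, 11.20 and 11.30 on the WT high-fat arrays and 11.35, 11.14 and 11.11 on the KO high-fat arrays. WT normal arrays stood above all others. Between KO and WT it differed by −0.26 (SE 0.08, adjusted p = 0.119) on the normal and −0.06 (SE 0.08) on the high-fat diet, and the diet difference was −0.25 (SE 0.08) in WT and −0.05 (SE 0.08) in KO. The difference between those diet effects did not pass (adjusted p = 0.99).

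A further probe set of Scd2, 1415824_at, was lower in KO by −0.64 over both diets (SE 0.10, adjusted p = 0.00392 among all probe sets) and by −0.67 on the normal diet (SE 0.14, adjusted p = 0.038). The third, 1415823_at, differed by −0.05 (SE 0.11) over both diets. Elovl6, which elongates palmitate to stearate, had a higher mean on the high-fat diet by 0.27 (SE 0.11, adjusted p = 0.32) over both genotypes, with arrays between 10.64 and 11.47 that overlapped.

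**Figure D5:**
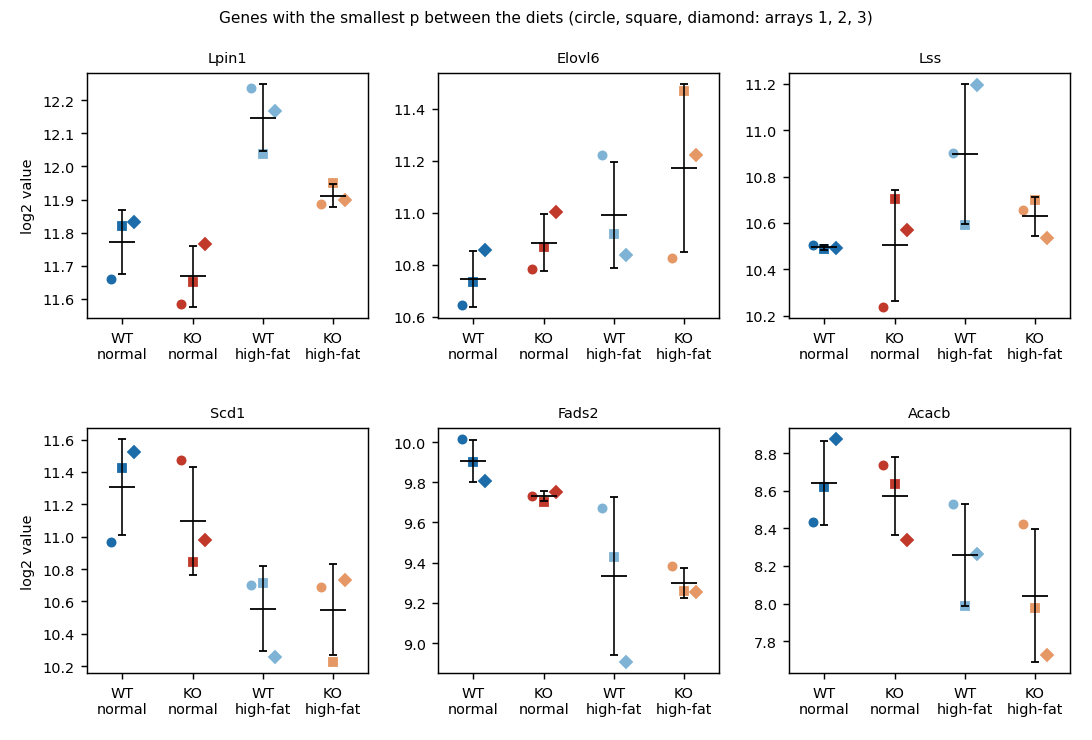
Each panel shows the log2 value of each array of 1 gene by group (circle, square and diamond for arrays 1, 2 and 3), a bar at the group mean and whiskers of 1 SD (n = 3); the axes differ between panels. The high-fat arrays lie above the normal-diet arrays for Lpin1 and below them for Scd1 and Fads2 without overlap, and they overlap for Elovl6, Lss and Acacb.

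The glycerolipid genes had lower means in KO over both diets in 5 of 5 cases, as did 59.5% of all genes, and 0 of 5 were called. Lpin1, the phosphatidate phosphatase that makes diacylglycerol, was at 11.66, 11.82 and 11.83 on the WT normal arrays, 11.58, 11.65 and 11.77 on the KO normal arrays, 12.24, 12.04 and 12.17 on the WT high-fat arrays and 11.89, 11.95 and 11.90 on the KO high-fat arrays. All high-fat arrays were above all normal-diet arrays, and on the high-fat diet all KO arrays were below all WT arrays. The diet difference was 0.38 (SE 0.08, adjusted p = 0.139) in WT, 0.24 (SE 0.08, adjusted p = 0.503) in KO and 0.31 (SE 0.06, adjusted p = 0.068) over both. It was called over both genotypes under 3 alternatives: a prior with a trend and robust estimation (adjusted p = 0.0301), array weights (0.0491) and same-numbered KO arrays as a random block (0.0332). Its second probe set differed by 0.29 (SE 0.10) over both genotypes. Between KO and WT, Lpin1 differed by −0.24 (SE 0.08, adjusted p = 0.278) on the high-fat diet and −0.17 (SE 0.06, adjusted p = 0.0917) over both.

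Agpat2, which acylates lysophosphatidate, gave 9.49, 9.26 and 9.23 on the WT normal arrays, 8.92, 9.03 and 8.87 on the KO normal arrays, 9.22, 8.90 and 9.16 on the WT high-fat arrays and 9.04, 9.08 and 8.72 on the KO high-fat arrays. On the normal diet all KO arrays were below all WT arrays. The KO mean there was 76.4% of WT, a difference of −0.39 (SE 0.12, adjusted p = 0.118), compared with −0.15 (SE 0.12) when the diet was high in fat. Gpam, the mitochondrial enzyme of the first acylation of glycerol-3-phosphate, read 11.60, 11.47 and 11.64 on the WT normal arrays, 11.38, 11.41 and 11.35 on the KO normal arrays, 11.49, 11.32 and 11.34 on the WT high-fat arrays and 11.32, 11.39 and 11.38 on the KO high-fat arrays. WT normal arrays 1 and 3 were the highest of the 12, and the other 3 groups overlapped. Its difference between KO and WT was −0.19 (SE 0.07) on the normal and −0.02 (SE 0.07) on the high-fat diet.

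The last step, from diacylglycerol to triglyceride, is made by 2 unrelated enzymes. Dgat1 was at 9.47, 9.24 and 9.40 on the WT normal arrays, 9.09, 9.24 and 8.94 on the KO normal arrays, 9.48, 9.16 and 9.32 on the WT high-fat arrays and 9.21, 9.00 and 8.89 on the KO high-fat arrays. On each diet only the highest KO array reached the range of the WT arrays, and the differences were −0.28 (SE 0.12) and −0.29 (SE 0.12), or −0.28 (SE 0.08, adjusted p = 0.0641) over both. Dgat2 was at 7.47, 7.67 and 7.68 on the WT normal arrays, 7.42, 7.57 and 7.65 on the KO normal arrays, 7.69, 7.22 and 7.53 on the WT high-fat arrays and 7.44, 7.76 and 7.30 on the KO high-fat arrays, with overlapping groups and a difference of −0.02 (SE 0.10). The interval for Dgat2 was −0.24 to 0.20 and that for Dgat1 −0.47 to −0.10.

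Of the 12 sterol synthesis genes, 9 had lower means in KO over both diets (75%, against 59.5% of all genes). On the high-fat diet 9 had higher means over both genotypes (75%, against 44.8% of all genes). In any comparison 0 of 12 were called. Hmgcs1 held nearly the same value throughout, at 13.55, 13.66 and 13.60 on the WT normal arrays, 13.60, 13.55 and 13.62 on the KO normal arrays, 13.66, 13.63 and 13.62 on the WT high-fat arrays and 13.69, 13.55 and 13.58 on the KO high-fat arrays. The 95% interval of the difference between KO and WT was −0.13 to 0.08, and that of the diet difference −0.08 to 0.13. Its fainter probe sets did not follow it: 1433445_x_at was higher in KO by 0.30 (SE 0.08, adjusted p = 0.0361 among all probe sets) and 1433444_at by 0.34 (SE 0.09, adjusted p = 0.0372), while 1433446_at differed by −0.24 (SE 0.10, adjusted p = 0.127).

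Idi1, which isomerises the isoprenoid unit, gave 11.27, 11.19 and 10.85 on the WT normal arrays, 10.78, 11.20 and 11.13 on the KO normal arrays, 11.16, 11.08 and 11.27 on the WT high-fat arrays and 11.18, 11.08 and 10.96 on the KO high-fat arrays. The groups overlapped, with a difference between KO and WT of −0.08 (SE 0.09). Its second probe set, 1423804_a_at, was higher in KO by 0.47 (SE 0.11, adjusted p = 0.0229 among all probe sets). Sqle, the squalene epoxidase that controls flux late in the pathway, read 11.76, 11.68 and 11.73 on the WT normal arrays, 11.54, 11.70 and 11.82 on the KO normal arrays, 11.70, 11.57 and 11.69 on the WT high-fat arrays and 11.69, 11.80 and 11.53 on the KO high-fat arrays. Its intervals were −0.15 to 0.13 for the genotype and −0.19 to 0.10 for the diet.

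Of the other 9 sterol synthesis genes, Mvd (−0.29), Fdft1 (−0.19) and Nsdhl (−0.16) had an unadjusted p under 0.05 for lower means in KO over both diets, at adjusted p = 0.109, 0.107 and 0.0819. These are mevalonate diphosphate decarboxylase, squalene synthase and a sterol 4α-carboxylate dehydrogenase. On the normal diet all KO arrays were below all WT arrays for each of them. The genotypes did not overlap there for 34.3% of all genes, in either direction. Lss, which closes the sterol ring, and Sc5d, a desaturase near the end, had an unadjusted p under 0.05 for higher means on the high-fat diet, by 0.26 (SE 0.10, adjusted p = 0.309) and 0.18 (SE 0.08, adjusted p = 0.366). Mvk, Cyp51, Msmo1 and Dhcr7 differed between KO and WT by −0.16, 0.00, 0.06 and −0.01.

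Stard4 binds cholesterol and moves it toward the endoplasmic reticulum, where it is sensed and esterified. Its values were 10.44, 10.47 and 10.24 on the WT normal arrays, 9.94, 10.11 and 9.95 on the KO normal arrays, 10.23, 10.30 and 10.44 on the WT high-fat arrays and 10.20, 10.07 and 9.91 on the KO high-fat arrays. Every KO array was below every WT array. The difference over both diets, −0.32 (SE 0.07, adjusted p = 0.0285), passed. Within the diets it was −0.38 (SE 0.10, adjusted p = 0.0876) for the normal and −0.27 (SE 0.10, adjusted p = 0.305) for the high-fat diet. The diet differences were −0.06 (SE 0.10) in WT and 0.06 (SE 0.10) in KO.

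The Stard4 call was lost without 1 of 7 arrays (WT normal 1, WT normal 2, KO normal 1, KO normal 3, WT high-fat 3, KO high-fat 2 or KO high-fat 3), at adjusted p between 0.0502 and 0.0762, and with same-numbered KO arrays as a random block (0.0564). Its 2 other probe sets differed by −0.08 (1429240_at, SE 0.11) and 0.04 (1429239_a_at, SE 0.16), with overlapping arrays.

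Of 25 members with several probe sets above the filter, 13 had probe sets of opposite sign between KO and WT over both diets, and for 3 of these both signs had an unadjusted p under 0.05. When each probe set was tested on its own, 8 of the 73 probe sets of the members were called over both diets (11%, against 10.1% of all 28689 probe sets), 5 higher and 3 lower in KO. They read Scd2, Insig2, Acss2, Idi1, Acly, Hmgcs1 and Stard4. The chosen probe sets of Acly and Fdft1 carry the suffix _x_at and those of Dgat1 and Mvd _s_at, which mark probes that may also bind other transcripts.

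Of 62 other genes of these pathways listed for comparison, 53 were tested and 3 were called over both diets, all lower in KO (5.66%, against 6.32% of all genes), with 0 called in each of the other 6 comparisons. Hsd17b7, the sterol 3-ketoreductase of cholesterol synthesis, fell by 0.42 (SE 0.06, adjusted p = 0.0073) and Usf1, a transcription factor of lipogenic promoters, fell by 0.31 (SE 0.07, adjusted p = 0.0299). Both lie on chromosome 1, with 535 and 574 protein-coding genes between them and Sgpp2, so that linkage and loss of Sgpp2 cannot be told apart. Npc2, the lysosomal cholesterol carrier on chromosome 12, fell by 0.19 (SE 0.05, adjusted p = 0.046). At an unadjusted p under 0.05, 24 of the 53 differed over both diets (45.3%, against 28.6% of all genes), 6 higher and 18 lower; 17.8% of all genes were lower at that threshold.

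The tissue named in the title was checked against marker genes. Insulin (Ins2) was at a mean log2 value of 14.57, and the summed level of 9 islet endocrine markers was between 17.18 and 17.40 on every array. Of 6 fat cell markers measured, 3 were above the filter, and Adipoq, Lep and Cidec were not (Adipoq mean 3.53), while Fabp4 was at 11.53. The summed level of 10 acinar markers, on the log2 scale, was 17.09 to 17.29 on the KO normal arrays, 16.90 to 17.08 on the WT normal arrays, 16.78 to 17.08 on the WT high-fat and 16.99 to 17.05 on the KO high-fat arrays. On the normal diet the KO mean was the higher one for each of the 10, as for 40.2% of all genes. There 6 had an unadjusted p under 0.05 (60%, against 22.1% of all genes) and 0 were called. The genotypes did not overlap for 6 (60%, against 34.3%). On the high-fat diet the KO mean was higher for 7. In KO all 10 had lower means on the high-fat diet, 6 of them without overlap (60%, against 13% of all genes).

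The summed level of 7 endothelial markers was 13.62 to 13.74 on the WT arrays and 13.46 to 13.62 on the KO arrays, and 2 of the 7 were called lower in KO over both diets, where 6.32% of all genes were called in either direction. Over both genotypes, the 3 of 5 Schwann and glial markers above the filter had lower means on the high-fat diet (median log2 difference −0.43). Of all genes 55.2% did so. Each of the 3 markers had an unadjusted p under 0.05, against 13.6% of all genes. The summed level of these markers on the log2 scale was 7.61 to 8.83 on the WT normal and 7.73 to 7.93 on the KO normal arrays. It was 7.39 to 7.64 on the WT high-fat and 7.34 to 7.54 on the KO high-fat arrays. Of the 7 stromal markers, all had lower means on the high-fat diet (median −0.25). Only 1 had an unadjusted p under 0.05 (14.3%, against 13.6% of all genes). Their summed levels were 12.23 to 12.88 on the normal-diet arrays and 11.78 to 12.86 on the high-fat arrays. None of these markers was called for the diet. The part of these markers in the members' differences, Scd1, Fads2 and Lpin1 included, was not tested. In bulk samples such as these, fewer cells of a type and less RNA per cell cannot be told apart. The difference between the 3′ and 5′ control probe sets, a sign of RNA length, was 2.17 to 2.49 for Actb on all arrays. For Gapdh it was 1.09 to 1.23 on 11 arrays and 1.71 on WT high-fat array 3. That array had the highest values of Acaca, Fasn, Mvd, Lss, Mlxipl, Idi1, Fdft1, Cyp51 and Msmo1. It had the lowest values of Fads2, Acss2, Acly and Me1. The part of the Gapdh difference in those values was not tested.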

How the data were processed

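Per the labels' protocols, the authors isolated RNA with Trizol and made biotin-labelled cRNA. They deposited a log2 value for each probe set on each array. The submitters' processing notes name RMA and Partek 6.6; the sources used here give no options. RMA corrects background and quantile-normalizes arrays, so that a shift shared by most genes would be hidden, and values near the lower end understate differences. Array medians were 7.00 to 7.13, and 75.9% to 77.3% of probe sets were above 5; within a group, r between arrays was 0.9912 to 0.9959. Their number limits the precision.

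Of 45101 probe sets, 34945 named 1 gene. Limma 3.58.1 in R 4.3.3 fitted the 4 group means to all 12 arrays (8 residual degrees of freedom, 11.08 after moderation) for 7 comparisons, with two-sided tests and Benjamini-Hochberg adjustment over all genes tested. Every adjusted p is from this fit unless probe sets, an array left out or another setting are named. The script was tested on simulated data. Figures used matplotlib 3.10.9 in Python 3.11.15.

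The members and lists were chosen with earlier results of these data known. Values of every array are given for members called, for the 3 with the smallest p in a comparison and for 14 regulators and pathway steps listed by name; other pathway genes are named where called. Probe sets named beyond the chosen ones were picked after their values were seen.

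KO arrays of the same number departed from their group means together on the 2 diets (r = 0.29, 0.38 and 0.14), each over 0.1. For same-numbered arrays of the other pairs of groups, r ran from −0.51 to 0.11. Arrays of different numbers were not compared. No label explains the numbers, so the pairing rests on these values; within such pairs the fitted correlation was 0.368. Alternatives were centring, loess, filters, priors, array weights, averaged probe sets, blocks and leaving out arrays.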

Additional observations from a re-analysis of the deposited data

How the results depend on the processing

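Each alternative was compared with the fit on all 12 arrays. Called members between KO and WT on the normal diet numbered 0 in that fit, where 0.84% of all genes were called. They numbered 1 with arrays centred on their median (1.56% of all genes) and 1 with a trend and robust prior (2.21%). They numbered 3 with array weights (7.71%) and 2 without both WT high-fat array 2 and KO high-fat array 3 (3.13%). With every probe set on its own there was 1. With 1 array left out there were 0 to 1 (1.46% of all genes without WT high-fat array 2). On the high-fat diet they numbered 0 to 1 with 1 array left out, against 0. Both gains with 1 array left out were Insig2, without WT high-fat array 2. In that setting 1.79% of all genes were called on the high-fat diet. Over both diets they numbered 3 in the fit on all 12 arrays, where 6.32% of all genes were called. They numbered 2 with no filter (without Acss2, 4.8% of all genes) and 1 with averaged probe sets (Scd2, 4.15%). They numbered 5 with array weights (12.1%), 8 without both arrays (10.8%) and 7 with every probe set on its own (10.1% of all probe sets). With 1 array left out they numbered 1 to 12. The lowest count came without any of the 7 arrays that the Stard4 call needs (1.67% to 5.12% of all genes). The highest came without WT high-fat array 2 (16.4% of all genes). For the diet over both genotypes 1 member, Lpin1, was called under 3 alternatives. These were a trend and robust prior (0.295% of all genes), array weights (0.289%) and KO pairs as a random block (0.551%). Acss2 turned to −0.039 with averaged probe sets. In the paired fit, with array numbers as a replicate block, the members called over both diets numbered 2 (Insig2 and Stard4, 3.44% of all genes). With same-numbered KO arrays as a random block they numbered 1 (Insig2, 2.31% of all genes). Acss2 was at adjusted p = 0.0679 and 0.0755 in these fits. Apart from the Lpin1 call for the diet, the block changed no other call of a member. The cause of these shifts was not tested, apart from the fewer arrays or other probe sets that a setting uses. Of the differences of single members recomputed (18 pairs of gene and comparison), 370 kept their direction and side of the threshold, 12 newly passed it, 25 no longer passed it and 1, that of Acss2, reversed.

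With 3 arrays a group, a single array decides most calls of members other than Insig2, and Insig2 rests on 1 of its 3 probe sets. Array signal gives no depth. Differences under about the size of the intervals given could not be told from the spread between arrays.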
